A study of Mus musculus with 10 samples.

Results

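The protein genes of the cytosolic ribosome were examined in RNA-sequencing counts of effector memory (EM) γδ T cells. Members were chosen by name alone, as protein-coding genes whose symbol is Rpl or Rps with a number, Rplp0 to Rplp2 or Rpsa, and which had at least 50 counts over all libraries. Of 83 genes with such a symbol among the 27179 in the count table, 2 were annotated as pseudogenes (Rps4l and Rpl6l) and 2 had fewer counts (Rpl3l with 42 and Rpl10l with 6). This left 79 genes, 31 of the small and 48 of the large subunit, and all 79 passed the filter on low counts.

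Each cytosolic ribosome holds one copy of nearly every one of these proteins, which are made in balanced amounts and assembled on ribosomal RNA in the nucleolus. Their mRNAs are short and abundant and belong to the TOP mRNAs, which begin with a C and an oligopyrimidine tract. Through this tract the kinase mTOR and the binding protein Larp1 couple their translation and stability to nutrients and growth signals, and T cells are known to build more ribosomes when they leave quiescence.

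EM γδ T cells, sorted as CD3+ γδTCR+ cells with an effector memory surface phenotype (CD44+ among other markers), came from the spleens of female C57BL/6 mice with no genetic modification named. The 5 pre-exposed mice had received 50000 *P. chabaudi*-infected red blood cells into a vein at 6 to 8 weeks of age, and the 5 naïve mice were not infected. Mice of both groups were given chloroquine and pyrimethamine, on day 14 of infection or at the matching time, and spleens were taken 12 weeks after the drugs ended. Each mouse gave 1 library from 1 ng of total RNA, and the question was what distinguishes resting EM γδ T cells after a cleared infection from those of uninfected animals.

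Library totals ran from 6587199 to 19993444 counts in naïve and from 8747888 to 22542832 in pre-exposed mice. Several libraries stood apart. The top 10 genes made up 24.7% of the counts of pre-exposed mouse 5, against 5.61% to 10.2% in the other 9 mice. An index pair is missing from the descriptions of pre-exposed mice 2 to 4 alone, and no source says what this marks. Across all genes, Spearman's rho between a gene's deviation from its mean and its length was 0.26 to 0.41 in naïve mice, 0.27 in pre-exposed mouse 1 and -0.54, -0.42, -0.24 and -0.14 in pre-exposed mice 2 to 5. The γδ T cell marker Trdc was read in every library (1826 to 3873 CPM, counts per 1000000 of the scaled library, in naïve and 1141 to 3626 in pre-exposed mice).

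Ribosomal protein genes took a larger share of the counts in 4 of the 5 pre-exposed mice. Naïve mice 1 to 5 had 0.488%, 0.530%, 0.634%, 0.521% and 0.636% of all counts in the 79 genes, while pre-exposed mice 1 to 5 had 0.631%, 1.11%, 0.865%, 1.11% and 1.45%. Pre-exposed mouse 1 thus lay within the naïve range, and the other 4 lay above it. These 4 are also the mice in which rho between deviation and gene length was negative. With libraries scaled by TMM, a method that sets library sizes from the bulk of genes, the summed level averaged 5722 CPM with an SD of 651 over the 5 naïve mice, and 12291 with an SD of 6360 over the 5 pre-exposed mice. The pre-exposed sums were 6590, 12145, 9005, 10663 and 23054 CPM in mice 1 to 5, and the highest naïve sum was 6696. The TMM factor was 0.680 in pre-exposed mouse 5 and 0.999 to 1.11 in all other mice. A lower factor raises every CPM of a library, so the scaled values of mouse 5 stand higher than its share of counts. In RNA from sorted cells in bulk, a change in the number of cells of one kind and a change in RNA per cell cannot be told apart.

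**Figure D1:**
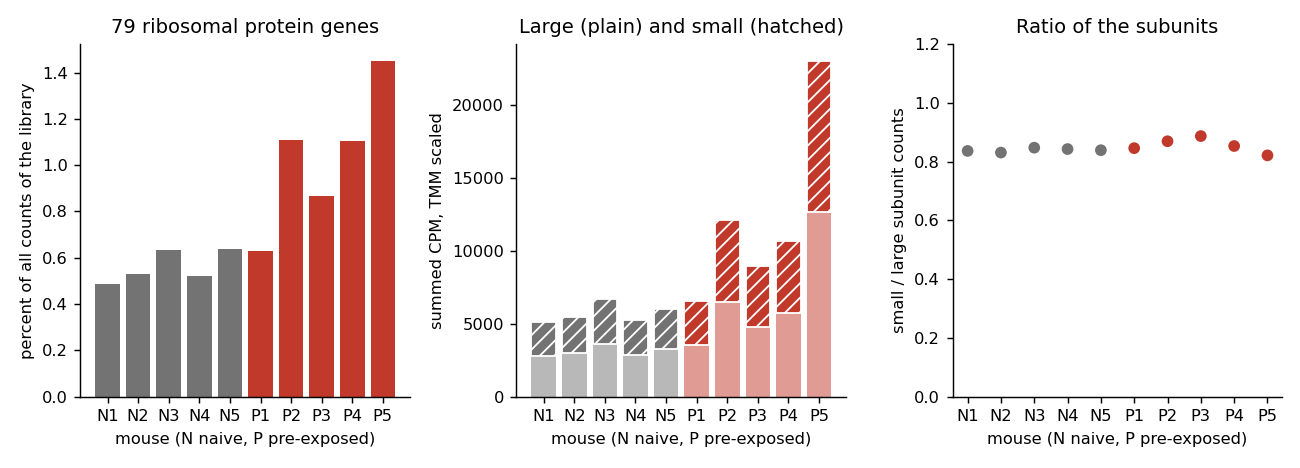
Ribosomal protein genes per mouse in 5 naïve (N1 to N5, grey) and 5 pre-exposed (P1 to P5, red) mice. Bars give the percent of all counts in the 79 genes (left) and their summed CPM split into large (plain) and small (hatched) subunit (middle), and points give the ratio of small to large subunit counts (right). Mouse P1 reached 0.631%, within the naïve range, P2 to P5 reached 0.865% to 1.45%, and the ratio stayed between 0.821 and 0.887 in all 10 mice.

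The balance between the subunits varied more among pre-exposed than among naïve mice. For each large subunit count there were 0.831 to 0.847 small subunit counts in naïve mice, and pre-exposed mice 1 to 5 had 0.846, 0.869, 0.887, 0.853 and 0.821. The median log2 fold change of pre-exposed over naïve mice was 1.23 over the 31 small subunit genes and 1.25 over the 48 large subunit genes.

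In the quasi-likelihood test of edgeR over all 12655 genes tested, 38 of the 79 genes had higher levels in the pre-exposed group at an adjusted p under 0.05 and 0 had lower ones. Among all genes tested, 5.12% were called higher and 1.17% lower. The 38 comprised 17 of the 31 small and 21 of the 48 large subunit genes. DESeq2 called 58 higher (7.97% of all genes) and 0 lower (2.7%), and voom with TREAT, which asks for a change beyond 1.5-fold, called 0 in either direction (0.0158% of all genes higher), with 18 at an unadjusted p under 0.05 (4.43% of all genes, upward). With library weights added to voom and TREAT, a setting chosen after the data were seen, 2 were called higher, Rps27 and Rpl35 (1.31% of all genes), and 0 lower (0.956%), with 24 higher at an unadjusted p under 0.05 (7.14%). An unadjusted p under 0.05 in edgeR was reached by 75 of the 79 genes and by 24.3% of all genes. The log2 fold change was above 0 for 78 genes, against 51.3% of all genes, and Rpl39l was the exception. The median over the 79 genes was 1.23, the quartiles were 0.95 and 1.57, and the median over all genes tested was 0.02.

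The count of 38 rested on single libraries, controls included. Without naïve mouse 1 it was 0 (0.971% of all genes called higher) and without pre-exposed mouse 2 also 0 (0.588%). In these fits 71 and 72 genes had an unadjusted p under 0.05 in either direction. Of all genes, 13.5% and 12.1% had one in the upward direction alone. The count called higher fell to 3, 14, 3 and 8 without naïve mice 2 to 5 in turn (1.42%, 3.06%, 1.82% and 2.27%) and to 20 and 23 without pre-exposed mice 3 and 4 (2.66% and 3.78%), and it rose to 65 without pre-exposed mouse 1 (9.47%). Without pre-exposed mouse 5 it was 42 (9.69%) while the median log2 fold change went from 1.23 to 0.78. The median stayed between 1.17 and 1.44 when any other mouse was left out. Pre-exposed mice 2 to 4 alone gave 61 higher genes (15.1%) at a median of 0.90. Mice 1 and 5 alone gave 0 (0.206%) at a median of 1.60, with 72 at an unadjusted p under 0.05 in either direction (12.9% of all genes, upward alone). With other scalings and filters 24 to 44 genes were higher, while the share of all genes called was 4.57% with RLE, 5.97% with upper quartile and 3.67% without scaling, 5.22% with TMM that leaves out the ribosomal protein genes, 3.32% without a filter and 3.96% with at least 1 CPM in 5 libraries. The older dispersion method of edgeR called 17 (2.43%), and a covariate for the style of the descriptions left 0 (0.308%), with 71 at an unadjusted p under 0.05 in the upward direction (13.3% of all genes).

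**Figure D2:**
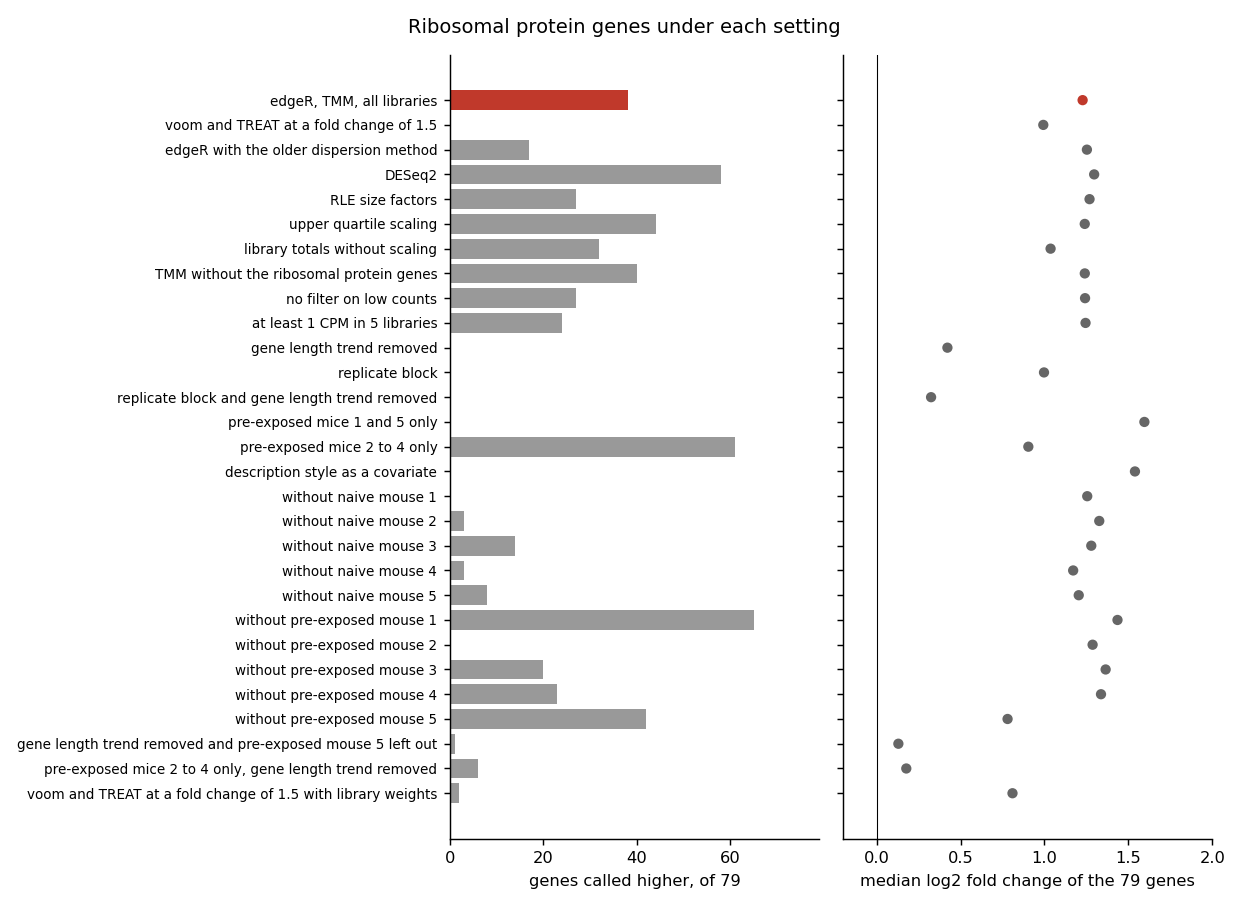
Number of the 79 ribosomal protein genes called higher in pre-exposed mice (left, bars) and their median log2 fold change (right, points) with all 10 libraries (red) and under each other setting (grey). The number ran from 0 to 65, whereas the median stayed above 0 throughout and was 0.42 or below wherever the trend with gene length was removed.

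Single mice differed in how many of the genes they raised. Above the highest naïve value lay 20 of the 79 genes in pre-exposed mouse 1, 74 in mouse 2, 68 in mouse 3, 73 in mouse 4 and 78 in mouse 5. In mouse 1, another 58 genes lay within the naïve range and 1 below it. The median difference from the naïve mean, on the log2 CPM scale, was 0.19, 1.21, 0.73, 0.98 and 2.25 in pre-exposed mice 1 to 5 and -0.11 to 0.28 in single naïve mice. Mouse 5 was the highest of all mice for 73 genes. Among mice 2 to 4, mouse 2 was the highest for 60 genes and mouse 4 for 16.

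The genes that stood out were similar in mice 2 to 4 and less so in mouse 5. Over the 79 genes, Spearman's rho between the differences from the naïve mean was 0.82 for mice 2 and 3, 0.78 for mice 2 and 4 and 0.57 for mice 3 and 4. It was 0.40, 0.48 and 0.20 for mouse 5 with mice 2, 3 and 4. These are descriptions over genes, which are not independent, and each value is taken against the same 5 naïve mice.

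**Figure D3:**
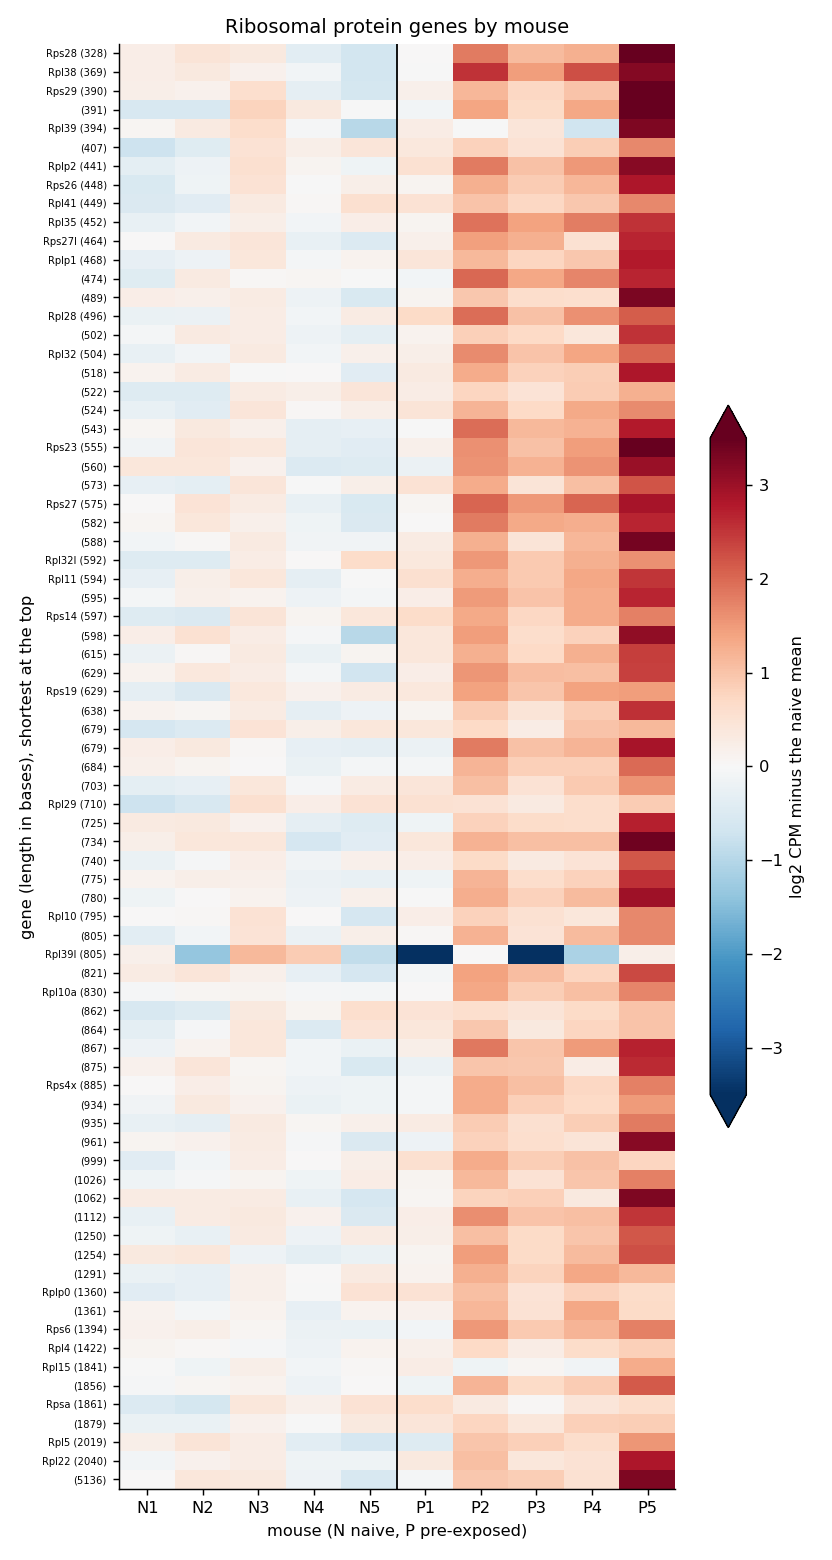
Difference of 77 of the 79 genes from their naïve means in log2 CPM (colour, red higher and blue lower) for 5 naïve and 5 pre-exposed mice in columns, with genes ordered by length in bases (in brackets, after the symbol where one is given), the shortest at the top. Mice P2 to P5 are red for nearly every gene and P1 is near white. Rpl39l, a gene of low counts, is blue in P1, P3 and P4 and near white in P2 and P5. Colours are limited to 3.5 in either direction, which 6 values exceed.

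In 18 of the 79 genes, all 5 pre-exposed mice lay above all 5 naïve mice, and 2.77% of all genes did so. At least 4 pre-exposed mice lay above every naïve mouse in 66 genes, against 14.2% of all genes. The 18 genes, of which 11 belong to the small and 7 to the large subunit, include Rps14, Rps19, Rpl4, Rpl11, Rpl22, Rpl28 and Rplp1. For genes without overlap the exact two-sided permutation test over mice gives p = 0.00794, the smallest it can give for 5 against 5, not adjusted for the number of genes.

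Rps14 and Rps19 are small subunit proteins needed for the maturation of the subunit, and mutations of human RPS19 cause Diamond-Blackfan anaemia. Rps14 was at 111, 106, 204, 161 and 198 CPM in naïve mice 1 to 5 and at 234, 377, 250, 370 and 510 CPM in pre-exposed mice 1 to 5, a log2 fold change of 1.16 ± 0.28 (SE; edgeR, adjusted p = 0.0297). Rps19 was at 62.5, 55.5, 101, 87.8 and 96.5 CPM in naïve and at 102, 207, 152, 209 and 214 CPM in pre-exposed mice, a log2 fold change of 1.14 ± 0.26 (edgeR, adjusted p = 0.0266). The groups did not overlap for either gene, although pre-exposed mouse 1 exceeded naïve mouse 3 in Rps19 by little. For Rps19, pre-exposed mouse 5 was close to mice 2 and 4, and the fold change without it was 1.02 (adjusted p = 0.0152).

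The largest fold changes were those of Rpl38, Rps28, Rps23, Rps27 and Rplp2. Rpl38 (chr11:114667818-114672333 in GRCm38) is a small protein of the large subunit, known for a part in the translation of homeobox mRNAs. Its level was 14.7, 15.8, 13.8, 11.7 and 7.95 CPM in naïve mice 1 to 5 and 12.3, 73.1, 34.3, 59.8 and 117 CPM in pre-exposed mice 1 to 5, so that mouse 1 lay among the naïve mice and the other 4 above them. The log2 fold change was 2.19 ± 0.45 (edgeR, adjusted p = 0.0189), and 1.75 without mouse 5 (adjusted p = 0.00985).

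Rps27 (chr3:90212667-90213648), a zinc-binding protein of the small subunit, was at 44.7, 62.1, 55.0, 37.5 and 30.9 CPM in naïve and at 46.4, 184, 128, 185 and 330 CPM in pre-exposed mice. Here too mouse 1 stayed within the naïve range, and mice 2 to 5 were at least 128. The log2 fold change was 1.92 ± 0.40 (edgeR, adjusted p = 0.0189), and 1.51 without mouse 5 (adjusted p = 0.00875). Rps27rt, an intronless copy listed under its own name, was at 214 to 288 CPM in naïve mice and at 255, 805, 515, 617 and 1086 CPM in pre-exposed mice (log2 fold change 1.45 ± 0.31, adjusted p = 0.0218). The copies are close in sequence, so the split of reads between them is uncertain.

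Rps28 and Rps23 depended more on mouse 5. Rps28, near the path of the mRNA in the small subunit, was at 9.83 to 21.1 CPM in naïve and at 15.6, 55.6, 34.0, 36.9 and 219 CPM in pre-exposed mice, and its log2 fold change of 2.12 ± 0.56 (edgeR, adjusted p = 0.0412) became 1.07 without mouse 5 (adjusted p = 0.0375). Rps23, which lies at the decoding centre, was at 28.8 to 51.0 CPM in naïve and at 42.9, 114, 77.5, 104 and 433 CPM in pre-exposed mice. Its log2 fold change was 1.98 ± 0.50 (adjusted p = 0.0339), and 1.07 without mouse 5 (adjusted p = 0.019). In both genes mice 2 to 4 lay above every naïve mouse.

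Rpl35, a large subunit protein at the mouth of the exit tunnel, had the smallest adjusted p of the 79 genes (0.0177). Naïve mice 1 to 5 had 22.2, 24.8, 30.3, 24.7 and 30.9 CPM, and pre-exposed mice 1 to 5 had 28.1, 98.4, 70.4, 92.1 and 152 CPM. Its log2 fold change was 1.73 ± 0.35, and its annotated span overlaps Wdr38. Rpl28, found in eukaryotes but not in bacteria, was at 4.40 to 6.36 CPM in naïve and at 8.37, 20.4, 10.7, 16.0 and 23.1 CPM in pre-exposed mice, without overlap (log2 fold change 1.58 ± 0.35, adjusted p = 0.0225). Rpl32, whose span overlaps Cand2, was at 137 to 204 CPM in naïve mice and at 192, 524, 328, 434 and 684 CPM (log2 fold change 1.37 ± 0.30, adjusted p = 0.0222).

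**Figure D4:**
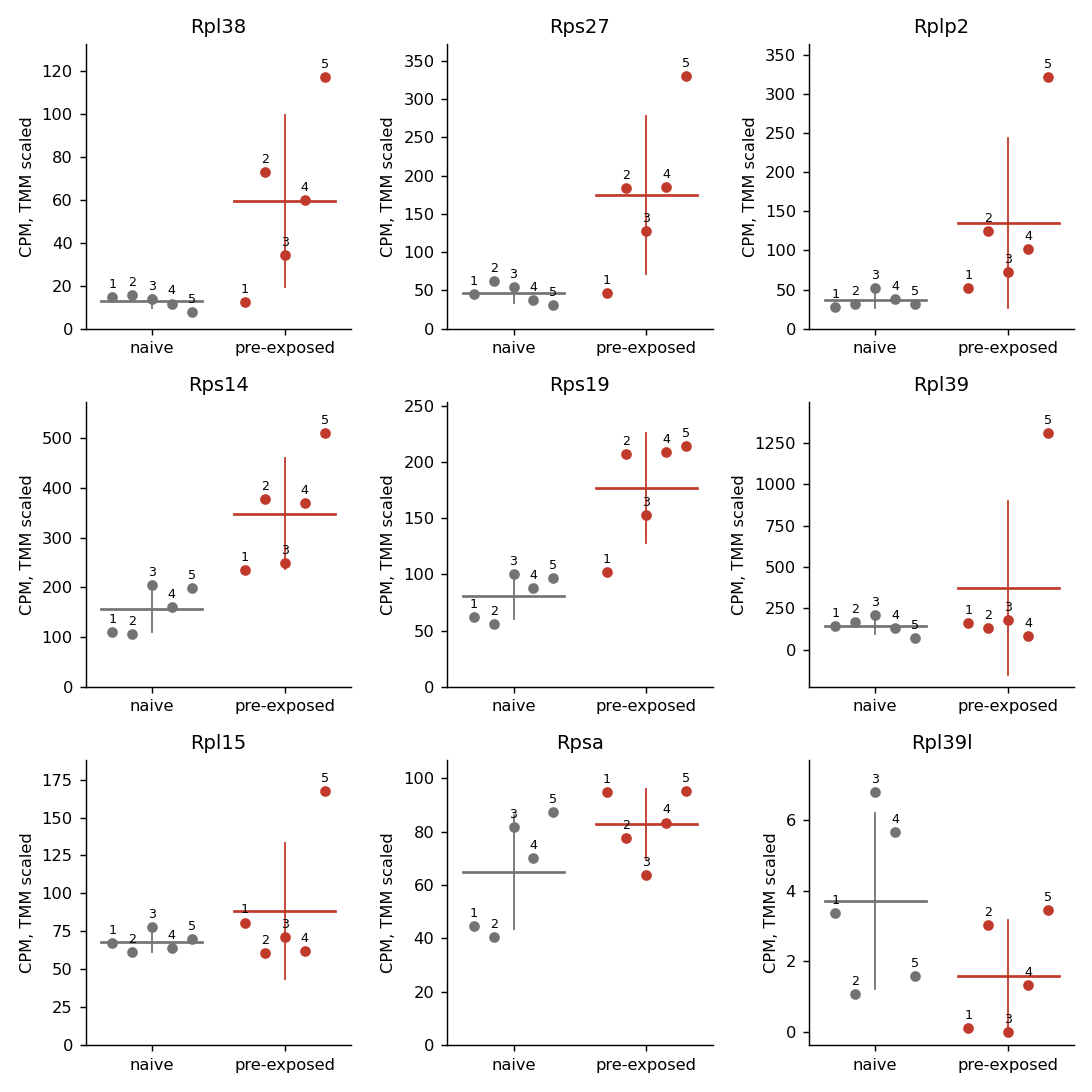
Level of 9 ribosomal protein genes in CPM with TMM scaling, with naïve mice in grey and pre-exposed mice in red. Points are mice with their replicate number, the horizontal bar is the mean and the vertical line ± SD (n = 5). Rps14 and Rps19 have no overlap, mouse 1 lies low in Rpl38 and Rps27, and mouse 5 alone is high in Rpl39 and Rpl15.

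The stalk of the large subunit, which recruits the elongation factors, is built of Rplp0, Rplp1 and Rplp2. Rplp1 was at 100.5 to 161 CPM in naïve and at 162, 266, 205, 236 and 836 CPM in pre-exposed mice (log2 fold change 1.46 ± 0.39, adjusted p = 0.0418; 0.78 without mouse 5, adjusted p = 0.0215). Rplp2 was at 27.7 to 52.0 CPM in naïve and at 51.4, 125, 72.6, 101 and 322 CPM in pre-exposed mice (1.89 ± 0.42, adjusted p = 0.023; 1.24 without mouse 5, adjusted p = 0.00831). Rplp0, the base of the stalk, did not pass the test in edgeR, with 161 to 299 CPM in naïve and 299, 434, 291, 370 and 329 CPM in pre-exposed mice (0.68 ± 0.23, adjusted p = 0.0895). Differences between the stalk genes themselves were not tested.

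Rpl5 and Rpl11 bind the smallest ribosomal RNA together and, outside the ribosome, bind the ubiquitin ligase Mdm2 when assembly is disturbed. Rpl11 was at 12.1 to 19.6 CPM in naïve and at 22.1, 36.4, 28.0, 38.1 and 84.7 CPM in pre-exposed mice, without overlap (log2 fold change 1.44 ± 0.35, edgeR, adjusted p = 0.0296). Rpl5 was at 62.9 to 129 CPM in naïve and at 69.0, 183, 167, 144 and 275 CPM in pre-exposed mice, and did not pass (0.78 ± 0.32, adjusted p = 0.15). Its span overlaps Dipk1a, and 0.552 counts per Rpl5 count were listed under a pseudogene of it.

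Of the genes known for other roles, Rps6, the subunit protein phosphorylated downstream of mTOR, was at 69.4 to 93.8 CPM in naïve and at 76.0, 231, 152, 185 and 277 CPM in pre-exposed mice (log2 fold change 1.17 ± 0.29, adjusted p = 0.0346). Rpl22, needed for the development of αβ but not γδ T cells, was at 35.3 to 47.0 CPM in naïve and at 49.8, 81.2, 51.3, 55.6 and 280.0 CPM in pre-exposed mice. Its groups did not overlap and mouse 5 lay far above the rest, and it did not pass the test in edgeR with or without mouse 5 (1.38 ± 0.43, adjusted p = 0.07; 0.56 without mouse 5, adjusted p = 0.0795). Rpl10a passed (1.10 ± 0.28, adjusted p = 0.0346), as did X-linked Rps4x (1.06 ± 0.29, adjusted p = 0.0444) and Rps26 at the mRNA exit channel (1.5 ± 0.42, adjusted p = 0.0483). Rps29 (1.84 ± 0.55, adjusted p = 0.0581), X-linked Rpl10 (0.78 ± 0.30, adjusted p = 0.125) and Rpl41, which encodes the shortest of these proteins (0.98 ± 0.28, adjusted p = 0.0506), did not.

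Another 47 genes, on which no single result turns, had log2 fold changes from 0.59 to 1.83 and mean levels from 8.06 to 340.0 CPM. Of these, 20 were called higher in edgeR, 8 of the small and 12 of the large subunit. The 79 genes are spread over 19 chromosomes.

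The smallest fold changes were those of Rpl39l, Rpsa, Rpl15, Rpl29 and Rpl4, none of which passed the test in edgeR. Rpsa, also known as a laminin receptor precursor, was at 44.5, 40.5, 81.8, 70.3 and 87.3 CPM in naïve and at 94.8, 77.6, 63.9, 83.5 and 95.4 CPM in pre-exposed mice, so that 3 of the 5 pre-exposed mice lay within the naïve range (log2 fold change 0.36 ± 0.26, adjusted p = 0.414). Rpl15 was at 61.2 to 77.8 CPM in naïve mice and at 80.8, 60.6, 71.3, 62.0 and 168 CPM in pre-exposed mice (0.37 ± 0.28, adjusted p = 0.44), and without mouse 5 its log2 fold change was -0.01 (adjusted p = 0.966). Rpl29, a heparin-binding protein, was at 19.9 to 48.7 and at 41.2 to 61.0 CPM (0.49 ± 0.28, adjusted p = 0.301). Rpl4, which lines the exit tunnel, was at 323 to 397 CPM in naïve and at 415, 594, 437, 579 and 658 CPM in pre-exposed mice and had no overlap despite its small change (0.54 ± 0.21, adjusted p = 0.124).

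Some ribosomal proteins have a paralog that can take their place. Rpl39 (chrX:37082518-37085222) lies in the exit tunnel and was at 142, 167, 207, 132 and 69.1 CPM in naïve and at 163, 133, 181, 82.6 and 1312 CPM in pre-exposed mice. Only mouse 5 exceeded the naïve range, and the log2 fold change of 1.38 ± 0.63 (edgeR, adjusted p = 0.192) became -0.06 without it (adjusted p = 0.905). Its paralog Rpl39l (chr16:10170197-10174911), known mainly from the testis, was at 3.38, 1.09, 6.79, 5.67 and 1.59 CPM in naïve and at 0.0951, 3.02, 0, 1.32 and 3.45 CPM in pre-exposed mice. The 0 is a count of 0 in mouse 3, which is compatible with up to 3 counts, and the fold change of -1.28 ± 0.73 did not pass the test (adjusted p = 0.301).

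Rps27l, a paralog of Rps27 known to be induced by p53, was at 66.9 to 123 CPM in naïve and at 105, 249, 219, 134 and 591 CPM in pre-exposed mice (log2 fold change 1.44 ± 0.40, adjusted p = 0.0453). Per base of gene length, Rps27l had 2.29 to 2.78 counts for each count of Rps27 in naïve mice, and the ratios of pre-exposed mice 1 to 5 were 2.80, 1.68, 2.12, 0.899 and 2.22. Mice 2 to 5 thus lay below every naïve mouse in this ratio and mouse 1 above. The ratio leaves out counts listed under Rps27rt. Before division by length, these were 3.96 to 7.14 per count of Rps27 in naïve mice. In pre-exposed mice 1 to 5 they were 5.5, 4.37, 4.02, 3.33 and 3.29. Since the split of reads between Rps27 and Rps27rt is uncertain, the order of the mice holds only for Rps27 as listed. The level of Rps27l relative to the sum of Rps27 and Rps27rt was not tested. Rpl32l, an intronless gene of 592 bases inside the span of Map7, was at 12.8 to 27.7 CPM in naïve and at 22.6, 50.7, 33.1, 41.6 and 54.1 CPM in pre-exposed mice (1.14 ± 0.31, adjusted p = 0.0423). It received 0.0702 to 0.127 counts per Rpl32 count by length in naïve and 0.0674 to 0.101 in pre-exposed mice, and reads of the 2 genes may be shared.

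Levels of different genes were compared per kilobase of gene length, as RPKM over all 10 mice. Among the most abundant were Rpl39 at 657 ± 945 (SD, n = 10), where mouse 5 set the mean, and Rpl32, Rplp1, Rpl41, Rps14 and Rps27l at 594 to 382. Neighbours in this order did not differ beyond their spread over mice. The median gene was at 102 RPKM and Rpl39l was lowest at 3.28 ± 2.82. Over the 79 genes, Spearman's rho between log2 fold change and RPKM was -0.04.

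Ribosomal protein genes are short, and the shorter ones had the larger fold changes. Their median length was 684 bases (328 to 5136), against 2665 for all genes tested. Spearman's rho between log2 fold change and length was -0.53 over the 79 genes and -0.51 over all 12655 genes, given as a description since the points share the same 10 libraries. In the 26 shortest genes (328 to 582 bases) the median log2 fold change was 1.59 and 17 were called higher. In the 27 of middle length (588 to 830 bases) it was 1.16 with 14 called, and in the 26 longest (862 to 5136 bases) it was 0.98 with 7 called.

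When a trend with gene length, fitted over all genes, was removed from each library, 0 of the 79 genes passed the test in edgeR in either direction (1.38% of all genes higher), with 22 at an unadjusted p under 0.05 in the upward direction (9.59% of all genes). Above 0 were then 71 genes and below 0 were 8, with a median log2 fold change of 0.42. The medians of the 3 length classes became 0.47, 0.29 and 0.50, and rho with length became 0.15. Rpl38 had 0.97 (adjusted p = 0.121) and Rps27 had 0.93 (adjusted p = 0.114) on this scale. Without pre-exposed mouse 5 as well, a setting chosen after the data were seen, the median was 0.13 with 1 gene higher and 1 lower (4.93% and 5.61% of all genes). With mice 2 to 4 alone and the trend removed, also chosen after the data were seen, 6 were higher and 1 lower (7.5% and 9.1%). Length and membership of the ribosome go together in these genes, and the share of each in the difference cannot be told apart here.

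**Figure D5:**
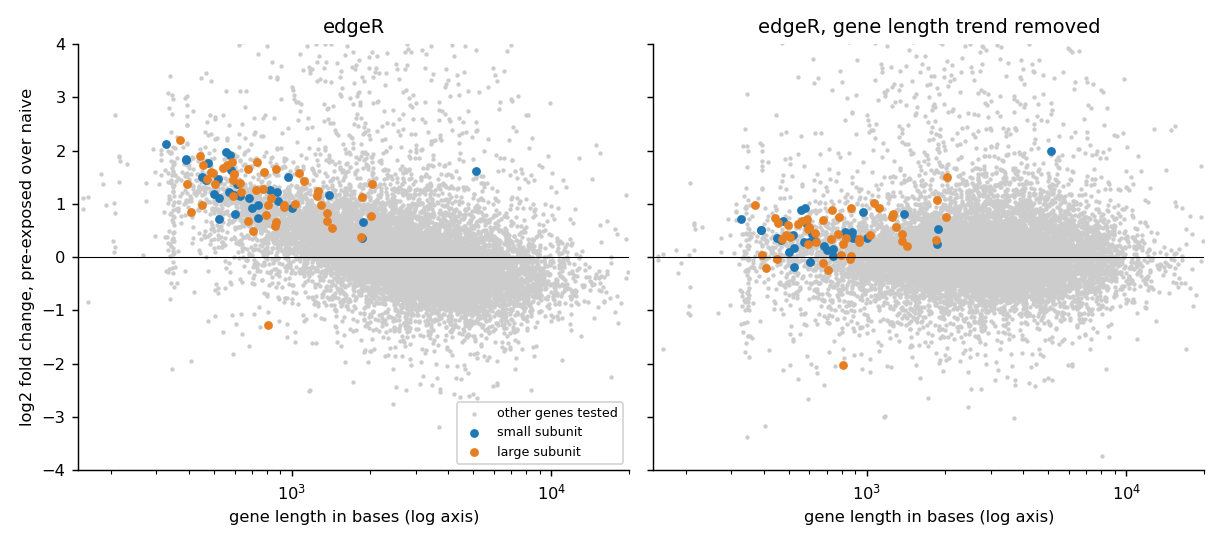
Log2 fold change of pre-exposed over naïve mice against gene length (log axis, bases) for small (blue) and large (orange) subunit genes and other genes tested (grey), from edgeR (left) and with the length trend removed (right). The ribosomal protein genes sit at the short end with a median of 1.23 on the left and 0.42 on the right. The vertical axis is limited to 4 in either direction, beyond which lie 59 genes on the left and 49 on the right.

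The annotated start sites were searched for the tract by which TOP mRNAs are known. RefSeq starts in GRCm38.p6 were at hand for 59 of the 79 genes. At the start itself, 14 of the 59 (23.7%) began with a C and at least 4 further pyrimidines on the coding strand, as did 3.01% of 27025 genes. Within 5 bases of the start such a run was found for 29 (49.2%), against 21.2% of all genes. The sequences below give the genes with the smallest adjusted p among those with a tract at the start, and Rps6 for its role, as 10 bases before the start and 15 from it, with the tract in capitals. Rps27l and Rpl39l, which have none at the start itself, are also shown. In Rps27l such a run begins at the base after the annotated start.
Rpl35 (chr2:39005117-39005141, minus strand): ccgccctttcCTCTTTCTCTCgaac
Rpl38 (chr11:114668570-114668594, plus strand): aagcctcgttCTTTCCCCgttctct
Rps27 (chr3:90213634-90213658, minus strand): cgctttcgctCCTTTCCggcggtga
Rpl28 (chr7:4792955-4792979, plus strand): tctcgtgtctCTCTTTCCgtctccg
Rplp2 (chr7:141447641-141447665, plus strand): cagcgtcttcCTTTCgccgccggac
Rps6 (chr4:86857353-86857377, minus strand): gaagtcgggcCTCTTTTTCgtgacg
Rps27l (chr9:66946076-66946100, plus strand): cctccccgccgcctctatcccggaa
Rpl39l (chr16:10170218-10170242, plus strand): aggcctttccggatttccggtggtc

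Among the sequences shown, tracts at the start ran from 5 bases in Rplp2 to 11 in Rpl35, and over all 14 genes they ran from 5 to 13 bases. The median log2 fold change was 1.57 in the 14 genes with a tract at the start, of which 9 were called higher, and 1.25 in the other 45, of which 22 were. The genes with a tract were also shorter, with a median of 574 against 734 bases. In the window from 250 bases before to 50 after the start, on either strand, CCGGAAG, which contains the core bound by ETS factors such as Gabpa, was found for 25 genes (42.4%, against 9.93% of all genes). AAGATGG, the core bound by Yy1, was found for 9 (15.3%, against 7.28%). The median log2 fold changes with and without CCGGAAG were 1.38 and 1.24. A match is a description of the letters in the window and not of binding.

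Ribosomal proteins whose symbols fall outside the naming rule were examined beside the 79. All 9 of them had a log2 fold change above 0, with a median of 1.28, and 4 were called higher, against 5.12% of all genes. Fau, which encodes a ubiquitin-like protein fused to a small subunit protein, was at 23.3 to 36.8 CPM in naïve and at 31.8, 86.2, 48.3, 73.1 and 129 CPM in pre-exposed mice (1.42 ± 0.33, adjusted p = 0.0276). Rpl36al, a paralog of Rpl36a, was at 69.6 to 92.1 and at 99.8, 219.5, 161, 131 and 408 CPM without overlap (1.37 ± 0.33, adjusted p = 0.0295).

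Factors that build the ribosome and translate with it were examined as lists, beside 5.12% of all genes called higher. Of 72 ribosome biogenesis genes, 2 were called higher and 0 lower, with a median log2 fold change of 0.31. These were Polr1d, a subunit of RNA polymerases I and III (1.06 ± 0.26, adjusted p = 0.0305), and Nop10 of the pseudouridylating box H/ACA particles (1.33 ± 0.35, adjusted p = 0.0383), while Ebna1bp2 of the early large subunit had 0.87 ± 0.25 (adjusted p = 0.0507). Of 16 translation factors and other genes with TOP mRNAs, 1 was higher, the elongation factor subunit Eef1d (0.80 ± 0.23, adjusted p = 0.0498), and the median was 0.31. Eif3k (0.68 ± 0.23, adjusted p = 0.0877) and Eef1g (0.59 ± 0.24, adjusted p = 0.146) did not pass.

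Regulators of these mRNAs, a list of Larp proteins, the mTOR pathway and transcription factors such as Myc, Gabpa and Yy1, had 0 of 22 called by edgeR and a median of 0.04. Its smallest p belonged to Larp4b, an RNA-binding protein, at 76.9 to 114 CPM in naïve and 79.1, 28.4, 45.4, 55.4 and 41.4 CPM in pre-exposed mice (-0.92 ± 0.27, adjusted p = 0.054; adjusted p = 0.0356 without mouse 5). Tsc2 had -0.74 ± 0.35 (adjusted p = 0.211) and Mlst8 -0.55 ± 0.31 (adjusted p = 0.286). The lists differ in length as well, with median gene lengths of 2562 bases for biogenesis, 1906 for the translation factors and 2846 for the regulators.

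Mitochondrial ribosomal proteins form a separate ribosome and are encoded by other nuclear genes. Of 78, 18 were called higher and 0 lower, 76 had a log2 fold change above 0, and the median was 0.72 at a median length of 1054 bases. With the length trend removed, the median was 0.10 and 1 was called. The difference between the cytosolic and the mitochondrial genes was not tested, since both come from the same comparison of the same mice.

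Copies of these genes in the genome can take up their reads. The count table lists 34 ribosomal protein pseudogenes whose symbol ends in -ps, with or without a number. They received 9.48 to 10.6 counts per 100 counts of the 79 genes in naïve and 9.41 to 11.0 in pre-exposed mice. Rpl6l (5565 counts), Rps4l (673 counts) and any copy under another kind of name are not among them, so these shares are lower limits. Of the 27 tested, 8 were called higher, 0 lower, and the median log2 fold change was 1.43. Pseudogenes with such a symbol were listed for 14 of the 79 genes. Of these, 7 (Rpl13, Rpl17, Rpl31, Rpl34, Rps12, Rps13 and Rps27a, picked for this count) had more counts in the pseudogenes than under their own name, so their levels are uncertain. The spans of 18 of the 79 overlap another annotated gene, and the strand setting of the counting is not given in the sources used here.

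Markers of other cells were high in some of the pre-exposed mice. The summed CPM of 6 plasma cell markers was 118 to 802 in naïve and 5420, 5346, 1929, 415 and 639 in pre-exposed mice 1 to 5. Of 7 monocyte and macrophage markers it was 36.2 to 162 in naïve and 956, 1466, 617, 321 and 45.2 in pre-exposed mice, and of 7 dendritic cell markers 57.2 to 83.3 and 351, 260, 165, 186 and 66.1. Pre-exposed mouse 5, highest in ribosomal protein genes, was within the naïve range of all 3 sums, and mouse 1, the lowest of the 5 in ribosomal protein genes, was above the naïve range of each. Single markers in mouse 5 did not all follow the sums. Flt3 (6.00 CPM, highest naïve 2.83), Clec9a (1.45, highest naïve 1.16) and Adgre1 (14.4, highest naïve 3.08) lay above the naïve range. Lyz2 (26.9, lowest naïve 29.6) and Sdc1 (5.81, lowest naïve 24.7) lay below it, and the other tested markers of these lists within it. For 6 neutrophil markers the sum was 0.310 to 20.9 in naïve and 1.09 to 226 in pre-exposed mice.

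Erythroid markers (5 of 6 in the table) summed to 79.6 to 459 CPM in naïve and to 325, 677, 818, 1721 and 2040 in pre-exposed mice 1 to 5, so that mouse 1 was again within the naïve range and mouse 5 the highest. Cycling cell markers summed to 329 to 616 in naïve and to 1313, 686, 712, 539 and 408 in pre-exposed mice. Markers of αβ T cells reached 1642 to 1992 and 1576 to 3289, of NK cells 433 to 1080 and 606 to 1793, and of B cells 103 to 166 and 80.5 to 180, with Pax5 at 0 counts in every library. Of 10 genes listed for γδ T cells, 7 were in the table, and the listed Tcrg constant region genes were not found by symbol. The 7 summed to 5277 to 7679 and 3445 to 10866. Among them, Cd3d, Cd3e, Cd3g and Cd44 are shared with other T cells, so this sum does not measure γδ T cells alone. Such sums rest on their most abundant genes. Of 4 B cell markers tested in edgeR, 2 were higher, Ms4a1 and Cd79a (adjusted p = 0.0366 and 0.0382). Of 6 for αβ T cells 1 was, Trac (adjusted p = 0.0222), and of 6 for NK cells 2 were. Of the 7 listed for γδ T cells, Cd3d, shared with other T cells, was higher (adjusted p = 0.046) and Trdv4 was lower (adjusted p = 0.0283). Among all genes, 5.12% were called higher and 1.17% lower. The part of any of these cells in the ribosomal protein result was not tested.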

How the data were processed

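Whole-number counts of read pairs per Entrez gene, not normalized, were deposited by the authors, who aligned paired-end reads to mm10 and summarized them with featureCounts. For neither tool is a version or strand option given in the sources used here. On the library kit the paper (SMART ultra-low input) and the labels (Illumina TruSeq) differ, and these kits prime and amplify RNA in different ways. Counts of 27179 genes were read for 10 libraries, and each library's own table held the same values as the table of the series. The labels give the libraries as separate samples, and all pairs within a group differed beyond sampling noise, with a smallest chi-square of 22.6 per gene.

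Symbols, gene spans and start sites came from RefSeq in GRCm38.p6, matched by Entrez ID (25275 of 27179), and gene lengths from the deposited tables. Of 13534 genes passing filterByExpr, 767 without a symbol and 112 immunoglobulin genes were left out as in the study's methods, and 12655 were tested. The test was edgeR 4.0.16 (R 4.3.3), quasi-likelihood with robust dispersions (legacy set to FALSE), TMM scaling and no covariates, two-sided, with p-values adjusted over all genes tested by Benjamini and Hochberg at 0.05. The standard error is the log2 fold change over the root of the F statistic. CPM are counts per 1000000 of the TMM-scaled library size, with a prior count of 2 on the log2 scale, and RPKM are CPM per kilobase. Alternatives were limma 3.58.1 (voom and TREAT, also with library weights), DESeq2 1.42.0, other scalings and filters, each library left out, subsets and a covariate by the style of the label descriptions, the replicate number as a block, and removal of a length trend by loess offsets (span 0.3). Scripts were tested on simulated counts.

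Genes named are the 8 with the highest RPKM, the 5 largest and 5 smallest log2 fold changes, the 5 smallest p, paralogs ending in l with their parents, a set known by role, and up to 3 per list with the smallest p. Genes outside these are named where a count of a few or of pseudogenes is given, and were then chosen after their values were seen. Of the 79 members, 2 enter every count, sum and median but are not reported by name here. Members, lists and this rule were chosen with earlier results of these data known. Depth limits precision, and a count of 0 is compatible with up to 3 counts, for counting error only.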

Additional observations from a re-analysis of the deposited data

Results flagged for a closer look

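In each of 11 named genes, pre-exposed mouse 5 lay so far above the other pre-exposed mice that its gap to the nearest of them made up most of the group's range, beyond the limit of Dixon's test for 5 samples. In mouse 5, the levels were 114 CPM for Rpl10, 84.7 for Rpl11, 168 for Rpl15, 280.0 for Rpl22, 1312 for Rpl39, 836 for Rplp1, 322 for Rplp2, 433 for Rps23, 176 for Rps26, 219 for Rps28 and 499.8 for Rps29. Over all 79 genes the same held for 31, in mouse 5 each time. About 5% of independent groups pass this limit by chance. The 79 genes share the same 5 libraries, so that rate does not apply to the count of 31. The 10 most abundant genes took 24.7% of its counts, which also stood out. The levels of mouse 5 in CPM are raised by its low TMM factor of 0.680. Values without this mouse stand beside the results.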

How the results depend on the processing

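With all libraries, 38 of the 79 genes were higher, 0 lower and the median log2 fold change was 1.23. Without scaling of the library totals the median was 1.04. The number higher was 27 to 44 with RLE, upper quartile or no scaling, TMM without the ribosomal protein genes, or no filter, 24 with at least 1 CPM in 5 libraries, 17 with edgeR's older dispersion method and 58 with DESeq2. It was 0 with TREAT of limma at 1.5-fold (18 at an unadjusted p under 0.05) and 0 with description style as a covariate (71 at an unadjusted p under 0.05). For pre-exposed mice 1 and 5 it was 0 and for mice 2 to 4 it was 61. Each library left out in turn gave 0 to 65 genes higher, 0 lower and medians from 0.78 to 1.44. The sample titles do not state that replicate numbers pair the mice, and samples with the same number did not deviate together (correlations from -0.26 to 0.05). Such correlations cannot exclude a pairing by batch or cage. With the replicate block 0 genes were higher (0.348% of all genes; 63 at an unadjusted p under 0.05, upward, against 10.7% of all genes) at a median of 1.00. With the length trend removed 0 were higher at a median of 0.42, and with the block as well 0 at 0.32 (0.15% of all genes; 7 at an unadjusted p under 0.05, upward, against 6.26%). Chosen after seeing the data, TREAT with library weights gave 2 higher, 0 lower and 0.81, length trend removal without pre-exposed mouse 5 gave 1 higher, 1 lower and 0.13, and with mice 2 to 4 alone 6 higher, 1 lower and 0.18. The causes were not tested.

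Log2 fold changes turned negative as follows. With the length trend removed, they were -0.23 for Rpl29, -0.031 for Rpl41 and -0.042 for Eif3k. With the block in addition, they were -0.20 for Rpl29, -0.46 for Rpl39 and -0.044 for Eif3k. With each library left out in turn, Rpl15 ran from -0.014 (without pre-exposed mouse 5) to 0.49 and Rpl39 from -0.061 (without mouse 5) to 1.64, and with mice 2 to 4 alone they had -0.13 and -0.17. With the length trend removed and without mouse 5, they were -0.18 for Rpl10, -0.29 for Rpl15, -0.23 for Rpl29, -0.82 for Rpl39, -0.10 for Rpl41, -0.030 for Rplp1, -0.0083 for Rps26, -0.17 for Rps29 and -0.018 for Eif3k. With the length trend removed and mice 2 to 4 alone, they were -0.23 for Rpl10, -0.43 for Rpl15, -0.40 for Rpl29, -1.23 for Rpl39, -0.24 for Rpl41, -0.12 for Rplp1, -0.0026 for Rps27l, -0.23 for Rps29, -0.12 for Rpsa and -0.00476 for Eif3k. Of these, Rpl39 with mice 2 to 4 alone passed the test (adjusted p = 0.0111).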
